A study of Rattus norvegicus with 7 samples.

Results

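Adrenal glands of rats exposed to chronic shock (CS) were compared with those of control rats, in 5 of the 7 libraries of the series, taken by their stress label: CS libraries 1 and 2 and control libraries 1 to 3. Each library held pooled RNA of 8 to 9 male Sprague-Dawley rats, and the spread between libraries is that of pools, not of individual rats. The CS rats were kept alone on the grid floor of a shock apparatus for 3 weeks, starting at postnatal day 28, and received foot shocks at unpredictable times. Control rats shared a cage, 3 together, and received no shock, and all rats were euthanised at postnatal day 50 or 51. CS and control rats thus also differed in single housing, in the grid floor and in the room, and these cannot be told apart from the shock. The other 2 libraries, from chronic variable stress (CVS), entered the test reported only through the filter on counts, and their levels are given beside CS in places. They also entered the correlations between libraries, the normalization before the principal component analysis and the fits of all 7 libraries.

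The adrenal cortex makes glucocorticoids and mineralocorticoids from cholesterol, which its cells take up from lipoproteins and store as esters in lipid droplets. The medulla inside it holds chromaffin cells, which pack catecholamines and granins into secretory granules. Stress drives the cortex through pituitary ACTH and the medulla through its nerve supply, and fat tissue surrounds the gland.

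Library totals ranged from 23673320 to 32242123 counts in control and were 31057275 and 26686099 in CS. Of 32754 genes listed, 13892 had at least 10 counts in every one of the 7 libraries and were tested. Levels are given as normalized CPM, that is, counts scaled by each library's total and by the TMM method, and they compare libraries for 1 gene, not genes with each other. Log2 fold changes are CS over control, with their standard error (SE). Of the adrenal cortex markers, 2 carried a symbol in the sources used here, the lipoprotein receptor gene *Scarb1*, at 2386 to 3974 CPM, and aldosterone synthase, *Cyp11b2*, at 1675 to 2514 CPM over the 5 libraries. In a principal component analysis of these libraries, the first component held 38.4% of the variance and the second 31.0%. On the first, CS 1 (-7.63) lay within the range of the controls (-20.0 to 5.17) and CS 2 (22.9) above it. On the second, both CS libraries (-14.9 and -11.2) lay below all controls (-2.24 to 19.7).

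Relative to control, 21 genes (0.151% of those tested) rose and 8 (0.0576%) fell in CS, 29 (0.209%) in all, by the quasi-likelihood test of edgeR with an adjusted p (Benjamini-Hochberg) below 0.05. An unadjusted p under 0.05 was reached by 1172 genes (8.44%), 667 higher (4.8%) and 505 lower (3.64%). Described here are 28 of them, 21 higher and 7 lower. Of these, 14 rose and 6 fell by a factor of 2 or more. In all 29 genes the 2 CS libraries lay outside the range of the 3 controls, as they did in 24.9% of all genes tested (12.9% above and 11.9% below control). The number called depended on the model. The Wald test of DESeq2 called 191 (1.37%), a fit that also held the replicate number (the replicate block) 418 (3.01%) and a fit that held the library code prefix (the code prefix block) 527 (3.79%), and each of these sets contained all 29. Each block leaves 1 residual degree of freedom. The replicate block sets CS 1 against control 1 and CS 2 against control 2, and control 3 adds nothing to its fold change. The code prefix block sets CS 1 against control 1 and CS 2 against control 3, and control 2 adds nothing. The number called also depended on single control libraries, with 1 gene called without control 1, 4 without control 2 and 1 without control 3. Those called without control 1 or without control 2 were among the 29. The gene called without control 3 was not, so that none of the 29 kept its call there. The lipogenic desaturase gene *Scd* kept its call without control 1 and without control 2. The sodium/proton exchanger gene *Slc9a3*, *Ass1* and AABR07063425.1 kept theirs without control 2 only. No other gene of the 29 kept its call in any of these fits. A fit without CS 1 or without CS 2 leaves 1 CS library, and its calls are not listed by gene.

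**Figure D1:**
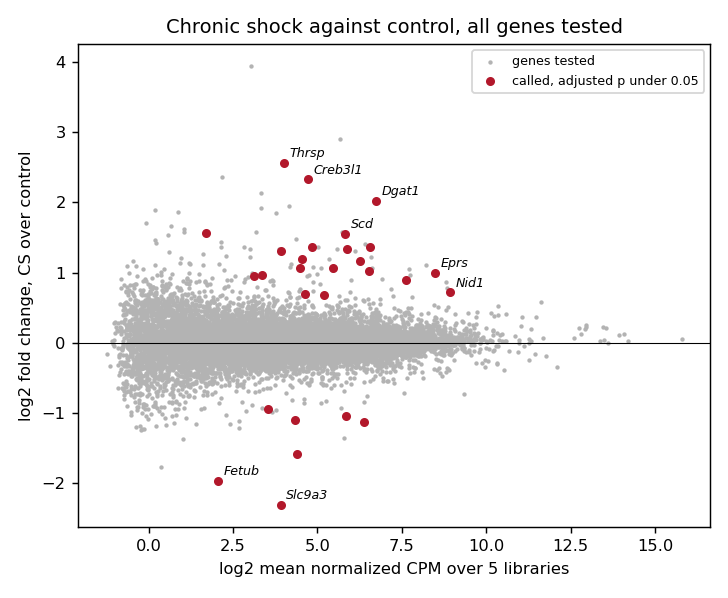
Log2 fold change of CS over control (y axis) against the log2 mean normalized CPM over the 5 libraries (x axis) for the 13892 genes tested. Red points are 28 of the 29 genes called at an adjusted p under 0.05, 21 above 0 and 7 below, and 8 of them are named.

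**Figure D2:**
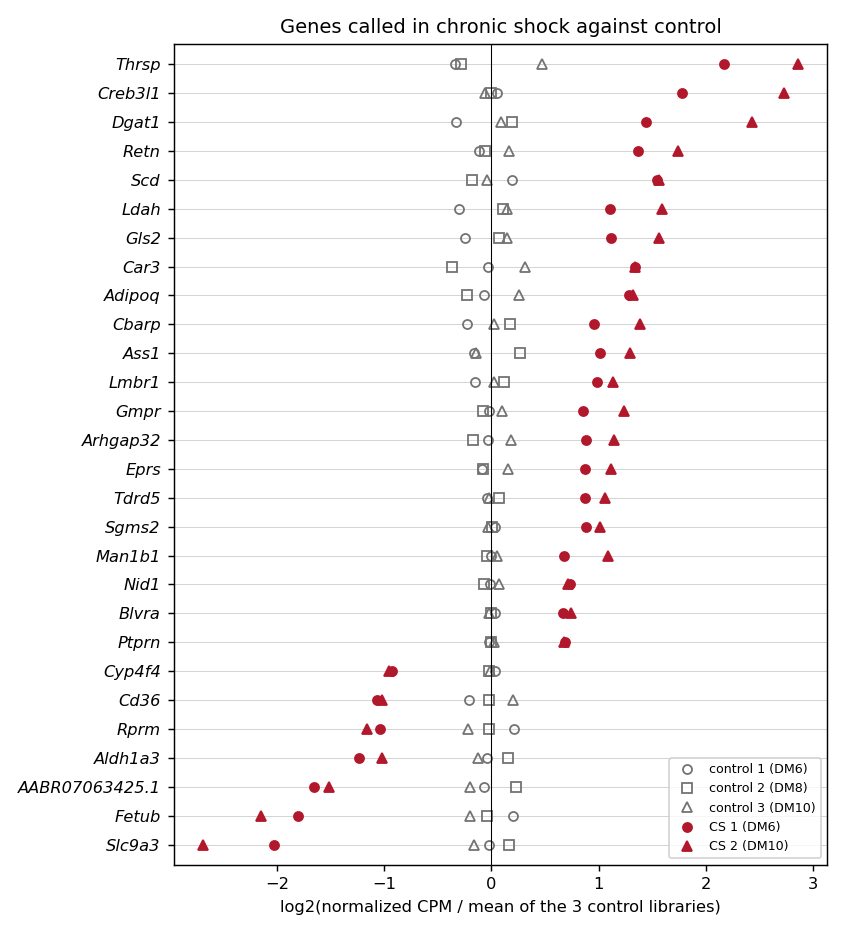
Level of each called gene in each library, as log2 of normalized CPM over the mean of the 3 controls (x axis), with control libraries as open symbols and CS libraries as filled red symbols, and the library code prefix given by shape. The CS points lie outside the control points in every row, and the CS libraries lie farthest from each other in *Creb3l1* and *Dgat1*.

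The code prefixes gave pairs within which CS could be set against control: DM6, shared by control 1 and CS 1, and DM10, shared by control 3 and CS 2. The labels do not say what the prefix marks. Of all genes tested, 61.683% had the same direction in both pairs. All 28 genes did, which follows from their CS libraries lying outside the range of the controls. Their log2 differences in the 2 pairs were a median of 0.18 apart, and 1.04 at most. In *Slc9a3*, whose product exchanges sodium for protons across the membrane, the log2 difference was -1.91 in DM6 and -2.36 in DM10, and the log2 fold change ranged from -2.69 (without CS 1) to -2.03 (without CS 2) when 1 library was left out. In *Fetub*, which encodes a secreted protease inhibitor made mainly in liver, it was -1.74 and -1.63, and in *Rprm*, linked to cell cycle arrest, -1.21 and -0.92. These 3 genes were thus low in each CS library against the control of its own prefix.

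Among genes of fatty acid and triglyceride synthesis, 3 of 8 with a symbol, of 25 in the list, rose, where 0.151% of all genes did. *Scd*, *Thrsp*, a regulator of lipogenesis, and *Dgat1*, the enzyme of the last step of triglyceride synthesis, were the genes that rose, and no member fell by the test. *Scd* had a log2 fold change of 1.55 (SE 0.11, adjusted p = 0.011, edgeR), with 1.34 in the DM6 pair and 1.58 in the DM10 pair. *Dgat1* was at 38.1, 54.9 and 51.3 CPM in control 1 to 3 and at 130 and 260 CPM in CS 1 and 2. Both CS libraries were far above every control, and CS 2 was at 2.00 times CS 1. In edgeR's robust fit, *Dgat1* was not called (adjusted p = 0.208). Its log2 fold change was 2.02 (SE 0.27, adjusted p = 0.0409, edgeR's quasi-likelihood test), and 1.44 to 2.44 when 1 library was left out, the lowest without CS 2 and the highest without CS 1. For *Thrsp*, this range was 2.18 (without CS 2) to 2.87. The other acyltransferase of that step, *Dgat2*, was at 73.0, 70.4 and 50.6 CPM in control and at 36.5 and 31.2 CPM in CS. It lay below control in both CS libraries and was not called (log2 fold change -0.93, SE 0.17, adjusted p = 0.116 with edgeR, 0.000208 with the replicate block). Of the remaining members, *Fasn* (0.43) and *Acsl1* (0.39) had positive log2 fold changes and *Gpd1* (-0.37) and *Idh1* (-0.42) negative ones, with adjusted p from 0.191 to 0.261 (edgeR) and from 0.00296 to 0.0194 with the replicate block. The median log2 fold change of the 8 named members was 0.41, and that over all genes tested was 0.0053. All 8 came from the study's CS list, so their median is that of genes picked for a difference in these libraries.

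Symbols were at hand only for genes in the study's own lists, which were chosen on these libraries. The counts and medians over named members of any list here are thus not independent evidence of its direction. All 29 called genes had a symbol, so no list member without a symbol was called. Shares of named members called are therefore higher than those of whole lists.

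Of 6 named genes of lipid droplet proteins and the enzymes acting there, of 22 in the list, 2 rose, where 0.151% of all genes did. They were *Dgat1* and *Ldah*, which encodes a hydrolase bound to lipid droplets. *Ldah* was at 46.5, 61.8 and 63.5 CPM in control and at 124 and 173 CPM in CS, so that both CS libraries were well above every control. The log2 fold change was 1.37 (SE 0.17, adjusted p = 0.0328, edgeR). In contrast, *Plin5*, which encodes a droplet coat protein of oxidative tissues, was at 10.4, 10.8 and 9.40 CPM in control and at 5.85 and 5.25 CPM in CS. Its log2 fold change was -0.88 (SE 0.15), and it was not called by edgeR (adjusted p = 0.0985, 0.0151 with the replicate block). The fatty acid translocase gene *Cd36* fell, with a log2 difference of -0.85 in the DM6 pair and -1.21 in the DM10 pair. It was the 1 gene called among the 9 named of fatty acid uptake and oxidation, where 0.0576% of all genes fell by the test. Of the 9, 5 had an unadjusted p under 0.05 with a higher level and 3 with a lower one, against 4.8% and 3.64% of all genes. Among the higher were *Ppard*, a nuclear receptor of fatty acids (0.63), and *Angptl4*, an inhibitor of lipoprotein lipase (0.51), given as log2 fold changes (adjusted p = 0.150 and 0.245, edgeR, and 0.00858 and 0.0125 with the replicate block).

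**Figure D3:**
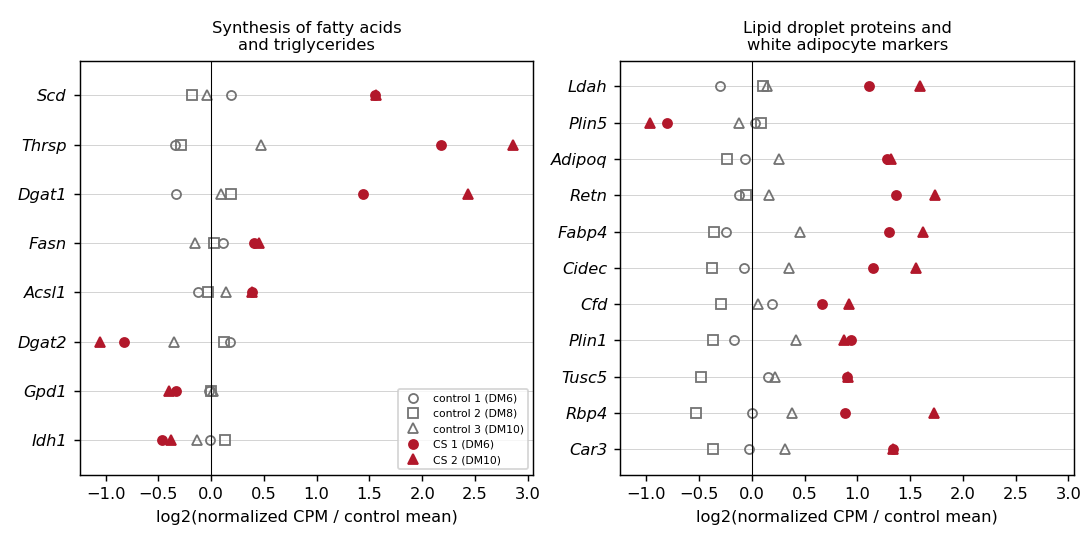
Normalized CPM of genes of fatty acid and triglyceride synthesis (left) and of lipid droplet proteins and white adipocyte markers (right) in each library, as log2 over the mean of the 3 controls (x axis), with control libraries as open and CS libraries as filled red symbols. *Dgat2*, *Gpd1*, *Idh1* and *Plin5* lie below control in both CS libraries, and the other 15 genes above it.

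Of 9 white adipocyte markers with a symbol, of 19 in the list, 3 rose, where 0.151% of all genes did. All 9 came from the study's CS list, none was at 0, and each was higher in both CS libraries than in every control, as were 12.9% of all genes. *Adipoq*, the gene of the hormone adiponectin, was at 9.14, 8.16 and 11.4 CPM in control and at 23.3 and 23.9 CPM in CS (log2 fold change 1.31, SE 0.15, adjusted p = 0.0311, edgeR). *Retn*, the gene of the hormone resistin, was at 1.69, 1.76 and 2.05 CPM in control and at 4.73 and 6.11 CPM in CS (1.56, SE 0.21, adjusted p = 0.0412, edgeR). *Car3*, a carbonic anhydrase of adipocytes and muscle, was at 36.0, 28.4 and 45.7 CPM in control and at 92.9 and 92.6 CPM in CS (1.34, SE 0.17, adjusted p = 0.0328, edgeR).

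The other 6 markers had log2 fold changes of 0.79 (*Cfd*, the complement factor adipsin) to 1.47 (*Fabp4*, the adipocyte fatty acid binding protein), with edgeR adjusted p of 0.0653 for *Fabp4*, 0.0902 for *Cidec*, 0.209 for *Cfd*, 0.227 for *Rbp4*, 0.245 for *Tusc5* and 0.256 for *Plin1*. With the replicate block, *Cfd* was not called either (0.0577), and the other 5 were, at 0.000208 to 0.0361, as were 3.01% of all genes. With the code prefix block, *Cfd* was called (0.0465) and *Tusc5* was not (0.0601). Summed over the 9 markers, the level was 65.7 to 104 CPM in control, 194 and 212 CPM in CS and 144 and 136 CPM in CVS. CVS levels, here and in the ratios below, were normalized over all 7 libraries, and those of CS and control over the 5 compared. A higher share of fat cells in a pool and more of these RNAs per cell cannot be told apart in whole glands. The part of adipocyte RNA in the lipid gene results was not tested. For *Dgat1*, the mean of the CVS libraries was 1.02 times that of control, whereas for *Thrsp* it was 3.54 times. Of the brown adipocyte markers, *Cpt1b* and *Cox8b* had a symbol and were not called (log2 fold change -0.14 and -0.12).

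Genes of steroid synthesis and cholesterol supply were not called by edgeR. *Akr1b8*, an aldo-keto reductase, was at 1099, 1103 and 1093 CPM in control and at 1514 and 1650 CPM in CS, above control in both libraries (log2 fold change 0.53, SE 0.08, adjusted p = 0.0708 with edgeR, 0.00179 with the replicate block). *Scarb1*, which takes up cholesteryl esters from high density lipoprotein, was at 2386, 2616 and 2873 CPM in control and at 3868 and 3974 CPM in CS (0.58, SE 0.10, adjusted p = 0.116 with edgeR, 0.000315 with the replicate block). Aldosterone synthase, *Cyp11b2*, was at 1675, 1921 and 2092 CPM in control and at 2396 and 2514 CPM in CS (0.37, SE 0.11, adjusted p = 0.358 with edgeR, 0.00314 with the replicate block). In these 3 genes both CS libraries lay above every control, as they did in 12.9% of all genes. *Nr0b1*, a repressor of steroid synthesis genes, had a log2 fold change of -0.36 (adjusted p = 0.433, edgeR).

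The other named genes of cholesterol handling were lower in CS without being called by edgeR. *Vldlr*, a lipoprotein receptor, was at 38.5, 41.3 and 38.2 CPM in control and at 27.5 and 25.6 CPM in CS (log2 fold change -0.57, SE 0.09, adjusted p = 0.0878). *Cyp27a1*, the sterol 27-hydroxylase, *Gramd1a*, a carrier of cholesterol from the plasma membrane, and *Lipg*, the endothelial lipase, had log2 fold changes of -0.57, -0.41 and -0.99 (edgeR adjusted p = 0.176, 0.182 and 0.195). All 4 were called with the replicate block, at adjusted p of 0.00102 to 0.00976, where 3.01% of all genes were called. In the cholesterol list 5 of 32 members had a symbol, with a median log2 fold change of -0.57, and all 5 came from the study's CS list.

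Of 3 genes of the secretory pathway with a symbol, of 26 in the list, 2 rose, where 0.151% of all genes did. *Creb3l1*, a membrane-bound transcription factor of the endoplasmic reticulum that drives secretory genes, differed from control by 1.68 on the log2 scale in the DM6 pair and 2.72 in the DM10 pair, and its log2 fold change was 2.73 without CS 1 and 1.77 without CS 2. *Man1b1*, a mannosidase that trims glycans of misfolded proteins, was at 147, 143 and 153 CPM in control and at 236 and 314 CPM in CS. It was above control in both CS libraries (log2 fold change 0.90, SE 0.12, adjusted p = 0.0412, edgeR). *Tex261*, with a role in export from the endoplasmic reticulum, was at 53.7, 48.6 and 53.1 CPM in control and at 64.7 and 83.9 CPM in CS and was not called (adjusted p = 0.227 with edgeR, 0.039 with the replicate block).

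Of 7 named genes of amino acid supply, of 37 in the list, 3 rose, where 0.151% of all genes did. None fell by the test. *Eprs*, the tRNA synthetase that charges glutamate and proline, was at 240, 241 and 283 CPM in control and at 465 and 553 CPM in CS (log2 fold change 1.00, SE 0.11, adjusted p = 0.0311, edgeR). *Gls2*, a mitochondrial glutaminase, was at 14.9, 18.6 and 19.5 CPM in control and at 38.4 and 52.2 CPM in CS (1.36, SE 0.16, adjusted p = 0.0314, edgeR). *Ass1*, the argininosuccinate synthase of arginine synthesis, was at 46.2, 62.2 and 46.8 CPM in control and at 105 and 127 CPM in CS (1.16, SE 0.15, adjusted p = 0.0328, edgeR). The lower CS library was above the highest control by a clear margin in all 3.

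The neutral amino acid carrier gene *Slc1a4* was at 4.73, 5.45 and 4.02 CPM in control and at 9.78 and 26.1 CPM in CS. The CS libraries differed by a factor of 2.67, the log2 fold change was 1.91 (SE 0.36), and it was not called by edgeR (adjusted p = 0.149, 0.00858 with the replicate block). *Slc1a3*, a glutamate carrier, lay below control in CS (log2 fold change -0.49, adjusted p = 0.195 with edgeR, 0.0194 with the replicate block). *Slc7a5*, the large neutral amino acid carrier, and *Phgdh*, of serine synthesis, had log2 fold changes of -0.29 and -0.23 and CS libraries within or next to the range of control (edgeR adjusted p = 0.607 and 0.763). *Slc7a5* had an adjusted p of 0.0147 with the replicate block but 0.337 with the code prefix block, and its log2 difference was -0.39 in the DM6 pair and 0.026 in the DM10 pair.

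Among genes of secretory granules and chromaffin cells, *Ptprn*, which encodes a protein of the membrane of dense-core granules, rose. It was at 29.3, 29.6 and 30.3 CPM in control and at 47.8 and 47.6 CPM in CS, with little spread within either group (log2 fold change 0.68, SE 0.08, adjusted p = 0.0319, edgeR). *Chgb*, the granin chromogranin B, was at 1091, 1161 and 1231 CPM in control and at 1562 and 1497 CPM in CS (0.40, SE 0.09, adjusted p = 0.214 with edgeR, 0.00462 with the replicate block). *Slc6a2*, the noradrenaline transporter, was at 35.3, 37.4 and 37.8 CPM in control and at 29.0 and 25.4 CPM in CS (-0.43, SE 0.10, adjusted p = 0.226 with edgeR, 0.0586 with the replicate block and 0.0315 with the code prefix block). The 3 chromaffin markers with a symbol, of 19, thus did not share 1 direction. *Cbarp*, a regulator of voltage-gated calcium channels, rose from 13.2, 17.5 and 15.8 CPM in control to 30.1 and 40.4 CPM in CS (1.19, SE 0.16, adjusted p = 0.0412, edgeR).

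Enzymes of vitamin A metabolism lay on opposite sides of control. *Aldh1a3*, which makes retinoic acid from retinal, was at 104, 119 and 97.8 CPM in control and at 45.5 and 52.8 CPM in CS. Both CS libraries were far below every control (log2 fold change -1.12, SE 0.12, adjusted p = 0.0311, edgeR). *Lrat*, which turns retinol into its storage ester, was at 131, 191 and 143 CPM in control and at 251 and 355 CPM in CS (0.97, SE 0.19, adjusted p = 0.149 with edgeR, 9.8e-05 with the replicate block). The carrier gene *Rbp4* was at 2.72, 1.89 and 3.55 CPM in control and at 5.02 and 8.97 CPM in CS, and it is also among the adipocyte markers.

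In haem breakdown, *Blvra*, which reduces biliverdin to bilirubin, rose from 20.3, 19.8 and 19.5 CPM in control to 31.5 and 33.1 CPM in CS (log2 fold change 0.70, SE 0.09, adjusted p = 0.0412, edgeR). *Hmox1*, the haem oxygenase of the step before it, was at 28.8, 26.8 and 27.3 CPM in control and at 19.9 and 18.7 CPM in CS (-0.52, SE 0.10, adjusted p = 0.149 with edgeR, 0.0205 with the replicate block). The enzymes of these consecutive steps thus lay on opposite sides of control.

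Of 9 cytochrome P450 and drug metabolism genes tested, of 20 in the list, 1 fell, where 0.0576% of all genes did. None rose by the test. *Cyp4f4*, a fatty acid hydroxylase, fell from 14.6, 14.0 and 14.1 CPM in control to 7.48 and 7.32 CPM in CS (log2 fold change -0.94, SE 0.13, adjusted p = 0.0409, edgeR). An unadjusted p under 0.05 was reached by 7 of the 9 with a lower level and by 1, *Akr1b8*, with a higher one. Over all genes tested, these shares were 3.64% and 4.8%. Of the 9, 8 came from the study's CS list. *Aox1*, an aldehyde oxidase, was at 91.1, 106 and 88.3 CPM in control and at 61.1 and 68.0 CPM in CS (-0.56, SE 0.11, adjusted p = 0.149 with edgeR, 0.00179 with the replicate block).

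In the extracellular matrix, *Nid1*, which encodes the basement membrane linker nidogen 1, rose. It was at 383, 368 and 406 CPM in control and at 639 and 632 CPM in CS (log2 fold change 0.72, SE 0.08, adjusted p = 0.0311, edgeR). *Ndnf*, a secreted neurotrophic protein, was at 45.1, 41.7 and 38.0 CPM in control and at 25.6 and 20.2 CPM in CS (-0.86, SE 0.13, adjusted p = 0.0644 with edgeR, 0.00118 with the replicate block). *Reln*, the secreted matrix protein reelin, was at 165, 173 and 203 CPM in control and at 313 and 254 CPM in CS (0.65, SE 0.12, adjusted p = 0.147 with edgeR, 0.00237 with the replicate block). *Tinagl1*, a basement membrane protein, had a log2 fold change of 0.46 (adjusted p = 0.195 with edgeR, 0.00297 with the replicate block). Higher and lower levels thus both occurred among the 6 matrix genes with a symbol. An unadjusted p under 0.05 was reached by 4 and 2 of them, against 4.8% and 3.64% of all genes.

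Of the sodium and proton transport genes, *Slc9a3* fell, while *Ezr*, encoding ezrin, which ties membrane proteins including this exchanger to actin, was at 42.4, 43.0 and 36.0 CPM in control and at 63.2 and 65.2 CPM in CS. The log2 fold change of *Ezr* was 0.67 (SE 0.10), and it was not called by edgeR (adjusted p = 0.0644, 0.00355 with the replicate block).

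The remaining called genes described here belonged to no list. AABR07063425.1, listed as a miRNA gene in the study's tables, fell, with a log2 fold change of -1.59 (SE 0.15, adjusted p = 0.0311, edgeR). *Lmbr1*, a membrane protein gene, rose from 14.0, 16.9 and 15.9 CPM to 30.8 and 34.1 CPM, and *Gmpr*, the guanosine monophosphate reductase, from 30.4, 29.3 and 33.0 CPM to 55.9 and 72.8 CPM, each with a log2 fold change of 1.06 (SE 0.12) and an edgeR adjusted p of 0.0311. *Arhgap32*, a GTPase activating protein, rose by 1.02, *Tdrd5*, known for its role in the germ line, by 0.97 and *Sgms2*, a sphingomyelin synthase, by 0.95 on the log2 scale (edgeR adjusted p = 0.0319, 0.0412 and 0.0495). *Sgms2* was the last gene inside the threshold. The gene just outside it was *Ptpre*, a tyrosine phosphatase, at 62.6, 58.2 and 60.7 CPM in control and at 40.7 and 39.2 CPM in CS (adjusted p = 0.0508 with edgeR, 0.00322 with the replicate block).

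None of the named genes of ribosome assembly and RNA processing was called by edgeR, but all 9 had an unadjusted p under 0.05 with a higher level in CS, with log2 fold changes of 0.35 (*Hnrnpd*, adjusted p = 0.240 with edgeR and 0.0337 with the replicate block) to 0.53 (*Ranbp2*, 0.221 and 0.00271). Over all genes tested, 4.8% had an unadjusted p under 0.05 with a higher level. With the replicate block 8 of the 9 were called, all but *Cd3eap* (0.0741), where 3.01% of all genes were called. *Rrp12*, of ribosome assembly, was at 45.5, 38.7 and 40.0 CPM in control and at 57.8 and 59.8 CPM in CS (adjusted p = 0.149 with edgeR, 0.0207 with the replicate block). *Rrp1*, of ribosome assembly too, was at 65.1, 60.5 and 66.1 CPM in control and at 79.4 and 91.6 CPM in CS (adjusted p = 0.214 with edgeR, 0.0256 with the replicate block). All 9 came from the study's CS list, so this uniform direction is that of genes picked for a difference.

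Clock and interferon genes were not called by edgeR either. *Dbp*, an output gene of the circadian clock, was at 468, 509 and 425 CPM in control and at 342 and 331 CPM in CS, and *Nr1d1*, the clock repressor REV-ERB alpha, at 160, 167 and 169 CPM in control and at 128 and 127 CPM in CS (edgeR adjusted p = 0.168 and 0.174, and 0.00271 and 0.0163 with the replicate block). *Cry1*, a clock repressor, had a log2 fold change of 0.57 and *Npas2*, a clock activator, one of -0.64 (adjusted p = 0.261 and 0.238 with edgeR, 0.0254 and 0.0362 with the replicate block). All rats were dissected within a window of 4 h, and the part of the hour in these values was not tested. The interferon-induced chemokine gene *Cxcl10* was at 19.8, 16.7 and 14.7 CPM in control and at 9.75 and 7.79 CPM in CS (-0.96, adjusted p = 0.116 with edgeR, 0.00296 with the replicate block). *Tnfsf10* (-0.42), the death ligand TRAIL, and *Gbp2* (-0.33), a guanylate binding protein, also had CS libraries below every control (adjusted p = 0.181 and 0.266 with edgeR, 0.0120 and 0.0156 with the replicate block).

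The other lists held few named members, and none of these was called apart from *Fetub* among hepatocyte markers. The immediate early gene *Egr1* had a log2 fold change of 0.83, and *Klf15*, a glucocorticoid receptor target, one of -0.56 (edgeR adjusted p = 0.245 and 0.149, and 0.0337 and 0.0147 with the replicate block). The other named target of this receptor, *Angptl4*, given above, lay on the opposite side of control, at 0.51. Of neuron and glia markers, *Tubb3*, a neuronal tubulin, was at 72.0, 67.8 and 68.4 CPM in control and at 42.1 and 65.4 CPM in CS, low in CS 1 and near control in CS 2, and *S100b*, of glia, had a log2 fold change of 0.18 (edgeR adjusted p = 0.607 and 0.780). The macrophage marker *Mrc1* had a log2 fold change of 0.18 (adjusted p = 0.637, edgeR). The zona glomerulosa marker with a symbol was *Cyp11b2*. The lists for cell cycle, skeletal muscle, kidney tubule, T and B cells, endothelium and red blood cells held no gene with a symbol and are not analysed here.

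**Figure D4:**
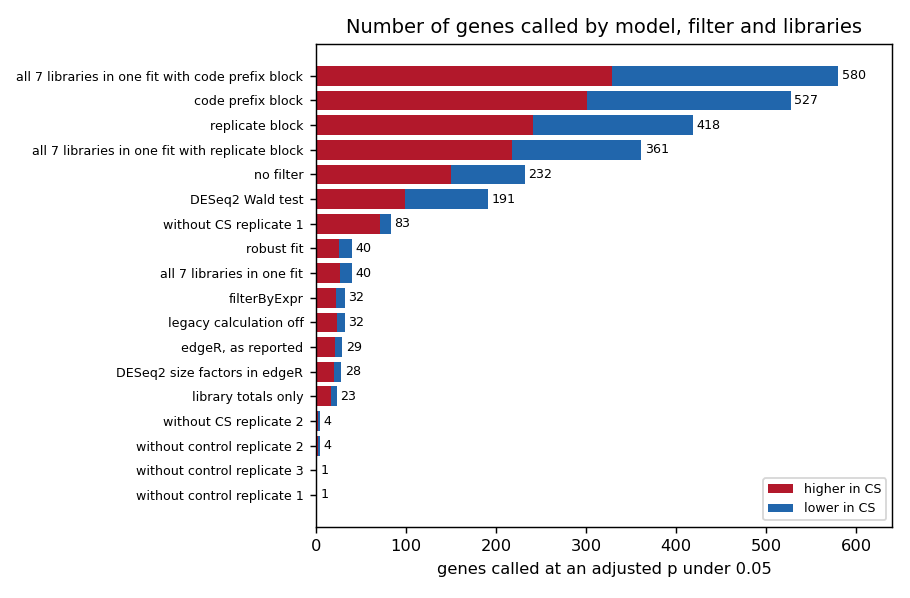
Number of genes called in CS against control at an adjusted p under 0.05 (x axis, from 0) under each model, filter or set of libraries, with genes higher in CS in red and lower in blue. The count is 29 in the fit reported, 1 to 83 when a library is left out, and 361 to 580 in the 4 fits with the replicate number or code prefix as a term.

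Promoters were read for the called genes, and those that held CACGTG, the most frequent among them of the motifs searched, are shown. Of the 28 genes, 23 matched a RefSeq window by symbol (GRCr8, 250 bases before to 50 after the start). The motif CACGTG (an E-box, its own reverse complement) was in 2 of them, *Slc9a3*, which fell, and *Lmbr1*, which rose, and in 6.65% of all 27457 windows. Both are shown 5′ to 3′ on the strand of the gene with the motif in capitals, which starts at -85 in *Slc9a3* (chr1:30995953-30996252, minus strand) and at -223 in *Lmbr1* (chr4:6649631-6649930, plus strand).
Slc9a3: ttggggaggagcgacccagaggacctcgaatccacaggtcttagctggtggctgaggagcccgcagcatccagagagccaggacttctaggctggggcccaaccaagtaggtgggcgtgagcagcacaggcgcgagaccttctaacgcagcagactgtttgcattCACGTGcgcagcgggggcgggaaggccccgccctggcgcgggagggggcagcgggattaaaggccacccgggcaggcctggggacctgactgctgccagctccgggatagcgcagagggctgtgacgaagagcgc
Lmbr1: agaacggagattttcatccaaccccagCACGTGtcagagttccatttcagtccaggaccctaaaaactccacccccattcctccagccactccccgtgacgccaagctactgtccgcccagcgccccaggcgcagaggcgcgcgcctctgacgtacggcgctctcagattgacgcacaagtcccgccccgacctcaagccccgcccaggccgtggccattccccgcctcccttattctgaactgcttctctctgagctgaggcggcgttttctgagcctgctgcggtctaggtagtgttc

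Searched on both strands in the same windows, the motif TGATGNAA (the amino acid response element) was in 1 of the 23, *Man1b1*, and in 3.82% of all windows. TGACGTCA (the cyclic AMP response element), TTATGTAA (the D-box), TCACNCCAC (a sterol response element) and the direct repeat bound by PPAR receptors were in none of the 23. Over all windows their shares were 1.91%, 0.881%, 1.13% and 0.0583%, too low for 23 windows to show a lack. Of 144 genes of the study's CS list with a window, 17 (11.8%) held CACGTG, among them *Ezr*, *Reln*, *Slc1a4*, *Lipg*, *Rrp1*, *Rrp12*, *Ranbp2* and *Hnrnpd*, whose values are given above. A match is a description of letters, and whether any factor binds there was not measured.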

How the data were processed

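Poly(A) RNA was made into directional libraries and read as 50 bp single reads. Per the labels and the study's methods, the authors mapped reads to Rnor_6.0 with Rsubread, counted them per gene with featureCounts and deposited raw counts, without normalization. Tool versions, annotation release and strand setting of the counting are not given in the sources used here, so overlapping or near-identical genes may share counts. Library totals were 23673320 to 32242123 in the 5 libraries compared.

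A gene was kept if every one of the 7 libraries held 10 counts or more. Groups came from the stress label. TMM normalization, estimateDisp, glmQLFit and glmQLFTest were run with edgeR 4.0.16 (limma 3.58.1, R 4.3.3) on the 2 CS and 3 control libraries, and p-values were adjusted over all 13892 genes by the Benjamini-Hochberg method. P-values measure the spread between pools. DESeq2 1.42.0 gave the Wald test, as in the study. The scripts were checked on simulated data. The same replicate number marked correlated deviations from the group means in all 6 pairs of same-numbered libraries (0.259 to 0.502). These are not 6 separate observations, since the 2 libraries of CS, and those of CVS, deviate from their mean by opposite amounts. On these values, the replicate block is given where it changes a call. Pairs with the same code prefix also correlated (0.211 to 0.502). The number pairs CS 2 with control 2 (0.259) and the prefix pairs it with control 3 (0.211), and these values do not choose between them, so the code prefix block is given where its call on a printed gene differs from that of the replicate block. No 2 libraries of a group agreed within sampling noise (chi-square per degree of freedom 8.85 to 43.8).

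Symbols were taken by Ensembl ID from the study's tables of changed genes, 276 in all, of which 275 genes were tested, with 4 letters corrected to RefSeq symbols. The tables' own fold changes were not used. Named were the called genes, up to 4 members of each list by smallest p, and markers of cell types with 2 or more members called by DESeq2. *Ptpre* and further list members were added after their values were seen. The members and all 18 gene lists and 13 marker lists were chosen with earlier results of these data known. No list had more than 50% of its members named. Python 3.11.15 (pandas 2.3.3, numpy 2.4.6, matplotlib 3.10.9) gave the other values and figures. Some genes are not reported here.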

Additional observations from a re-analysis of the deposited data

How the results depend on the processing

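Of the 29 genes called, 29 were also called with DESeq2's Wald test (191 genes), no filter (232), the replicate block (418), the code prefix block (527), and, chosen after seeing the data, all 7 libraries in 1 fit with the replicate block (361) or the code prefix block (580), and with filterByExpr (32), the legacy calculation off (32) and all 7 libraries without a block (40). A robust fit called 40, with all of the 29 but *Dgat1*. DESeq2's size factors called 28 and library totals alone 23. At an adjusted p under 0.1, 53 genes were called. Leaving out 1 library gave 1 to 83 genes, and with 1 CS library left its spread was taken to be that of control. Of named members of the pathway lists, 15 were called, and 67 with DESeq2, 57 with no filter, 70 with the replicate block, 69 with the code prefix block, 63 and 67 with all 7 libraries and these blocks, and 0 to 22 when 1 library was left out. The cause of these moves was not tested. *Per2*, at a log2 fold change of 0.036, reached -0.0149 with the replicate block, -0.0153 with it in 7 libraries, -0.00561 with library totals and -0.0173 (without control 3) to 0.0756 (without control 2) with a library left out. *Cox8b*, at -0.12, ranged from -0.59 (without CS 2) to 0.24 (without CS 1) and was 0.012 without control 3. No called gene reversed. The fit reported has 3 residual degrees of freedom and the replicate block has 1.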

Other observations

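The CS libraries differed from each other in some genes of the study's CS list. Of its 102 genes with a higher level in CS, 11 were at least 1.5 times as high in CS 2 as in CS 1 and none was as much lower, with a median ratio of CS 2 to CS 1 of 1.12. Of its 92 genes with a lower level, none was 1.5 times as high in CS 2 and 3 were as much lower, with a median ratio of 0.94. Of all genes tested, 3.98% were at least 1.5 times as high in CS 2 and 4.43% as much lower, with a median ratio of 0.994. The genes of the list were picked on the same libraries, so the counts are a description and not a test. The 11 were *Slc1a4*, *Dgat1*, *Creb3l1*, *Rbp4*, *Thrsp*, *Map1lc3a*, an autophagy gene (70.6 CPM in control 3, 101 in CS 1 and 182 in CS 2), *Emd*, the nuclear envelope gene emerin (24.0, 32.6 and 57.7 CPM), *Stbd1*, a glycogen binding protein (18.8, 29.7 and 46.6 CPM), *Fabp5*, a fatty acid binding protein, the immediate early gene *Egr1* and RGD1562747 (31.0, 54.4 and 124 CPM). They were named after their values were seen.

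The 2 highest log2 fold changes of all genes tested belonged to genes without a symbol whose level stood out in CS 2. ENSRNOG00000046667 was at 0.947, 1.76 and 0.897 CPM in control, 1.41 CPM in CS 1 and 35.6 CPM in CS 2 (log2 fold change 3.94, SE 1.05, adjusted p = 0.302, edgeR). ENSRNOG00000021812 was at 8.43, 17.9 and 16.2 CPM in control, 33.4 CPM in CS 1 and 176 CPM in CS 2 (2.90, SE 0.60, adjusted p = 0.168, edgeR). Neither was called, and which animals of the CS 2 pool carried the RNA cannot be seen in a pool.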
